A study of Mus musculus with 6 samples.

Results

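The 6 genes of blood vessels, meninges and blood were followed through RNA recovered with tagged ribosomes and through RNA of the whole tissue: Ly6c1, Slc2a1, Egfl7, Ptgds, Hbb-bs and Hba-a1. They were picked by symbol, and all 6 were among the 5538 genes with a value. The tissue was the perioculomotor (pIII) region, the part of the mouse midbrain around the oculomotor nucleus. Mice of strain C57BL/6 carried CreER, a drug-inducible recombinase, under the Fos promoter together with a Cre-dependent eGFP-L10a reporter, a ribosomal protein fused to a fluorescent tag. Each mouse had 6 hr of sleep deprivation followed by 3 hr of recovery sleep, and 4-OHT, which activates CreER, was injected just before one of these phases. The series text names the neurons labelled in recovery sleep as those profiled, while the labels of single libraries do not give the phase. The 3 IP libraries hold RNA precipitated with eGFP antibodies, and the 3 Input libraries are read here as the tissue before that step, so both groups share strain, transgenes and treatment. Each library pooled 4 to 5 mice, whose age the labels do not state. The labels name no neuron-specific promoter: the tag follows Fos activity and Cre action in any cell type.

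Brain capillaries are lined by endothelial cells joined into the blood-brain barrier, which feed the tissue through dedicated transporters. Slc2a1 encodes GLUT1, the barrier's glucose transporter, which astrocytes also make. Ly6c1 encodes a small surface protein anchored in the membrane of endothelial cells and of some blood leukocytes, and Egfl7 a protein that endothelial cells secrete into the matrix around growing vessels. Ptgds encodes lipocalin-type prostaglandin D synthase, abundant in the leptomeninges and in oligodendrocytes. Its product, prostaglandin D2, is known as a sleep-promoting substance. Hbb-bs and Hba-a1 encode the beta and alpha chains of adult haemoglobin, made in red cell precursors and still present as RNA in young red cells in the vessels.

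The 6 genes fell into groups that took different courses over the libraries. Ly6c1, Slc2a1 and Egfl7 peaked in IP 2. Ptgds, Hbb-bs and Hba-a1 peaked in Input 2 and were lowest in Input 3. The stretches before the RefSeq transcription starts of 5 of them are given here, 120 bases each in build GRCm38.p6. They belong to the globin genes and Ptgds, which shared a course, and to Ly6c1 and Slc2a1, which peaked in IP 2. Any link between sequence and course was not tested. Outside IP 2 the courses of Ly6c1 and Slc2a1 differed. Capitals mark matches, on either strand, to any of 6 motifs searched.
Hbb-bs, chr7:103827929-103828048, minus strand: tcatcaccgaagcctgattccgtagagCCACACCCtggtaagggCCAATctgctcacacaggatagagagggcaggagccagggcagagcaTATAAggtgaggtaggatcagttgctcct
Hba-a1, chr11:32283552-32283671, plus strand: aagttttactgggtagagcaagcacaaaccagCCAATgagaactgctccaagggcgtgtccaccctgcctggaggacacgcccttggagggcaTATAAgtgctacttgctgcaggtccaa
Ptgds, chr2:25469750-25469869, minus strand: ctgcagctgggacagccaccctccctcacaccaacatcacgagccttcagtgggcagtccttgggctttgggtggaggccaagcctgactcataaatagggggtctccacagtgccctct
Ly6c1, chr15:75048838-75048957, minus strand: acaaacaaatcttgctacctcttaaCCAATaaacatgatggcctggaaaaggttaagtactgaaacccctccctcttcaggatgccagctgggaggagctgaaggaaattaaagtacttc
Slc2a1, chr4:119108625-119108744, plus strand: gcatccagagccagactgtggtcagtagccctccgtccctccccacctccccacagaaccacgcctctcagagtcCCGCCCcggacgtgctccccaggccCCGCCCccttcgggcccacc
The core promoter element of many strongly expressed genes was searched as TATAA, and the element read by nuclear factor Y as CCAAT. Erythroid factors of the GATA family were represented by AGATAA, and Krüppel-like factors by CCACACCC. For the element of factor Sp1 the letters were GGGCGG, and for endothelial and other factors of the ETS family CCGGAAG. Hbb-bs and Hba-a1 lie on different chromosomes and both had TATAA, starting 29 and 27 bases before the start, and CCAAT, 76 and 88 bases before it. Hbb-bs also had CCACACCC at 93 bases and, upstream of the bases shown, AGATAA at 210 bases. Slc2a1 had GGGCGG, read on the opposite strand, 45 and 20 bases before its start, and Ly6c1 had CCAAT at 95 bases and, upstream of those shown, TATAA at 143 bases. The search covered the 250 bases before each start, where Ptgds and Egfl7 had none of the 6 motifs. Over 32817 such windows, TATAA was present in 22.8%, CCAAT in 33.8%, GGGCGG in 32.7%, AGATAA in 9.99% and CCACACCC in 3.19%. A match describes letters in a window and is not a site of binding. Egfl7 has 3 RefSeq starts and Ly6c1 has 2, of which the most upstream was used.

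Values are TPM, transcript abundances scaled to one total per library and corrected for transcript length, which keep no read depth. The number of reads behind a value is therefore unknown, and no counting interval can be given. The median gene was lowest in IP 1 (27.7 TPM) and Input 3 (31.1), and stood at 56.5 and 51.0 in the other two IP libraries and 64.3 and 67.2 in Inputs 1 and 2. Across genes, Inputs 1 and 2 correlated at r = 0.973 on the log2(TPM + 1) scale and Input 3 with them at 0.722 and 0.736. IP 2 and IP 3 correlated at 0.962 and IP 1 with them at 0.831 and 0.882, so Input 3 and IP 1 stood apart from their groups. Levels are therefore also given as multiples of the median gene of their own library. Differences between IP and Input are on the scale of log2(TPM + 1) minus the library's median, tested with limma, a linear model per gene, over all 5538 genes. A replicate is a pool of mice, and p-values measure the spread between pools. At an adjusted p of 0.05, limma called 0 genes in either direction (0.0% higher and 0.0% lower), against 198 raised and 213 lowered genes at 0.05 before adjustment. None of the 6 genes was therefore called. Fewer cells of a type and less RNA per cell cannot be told apart in such bulk samples.

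**Figure D1:**
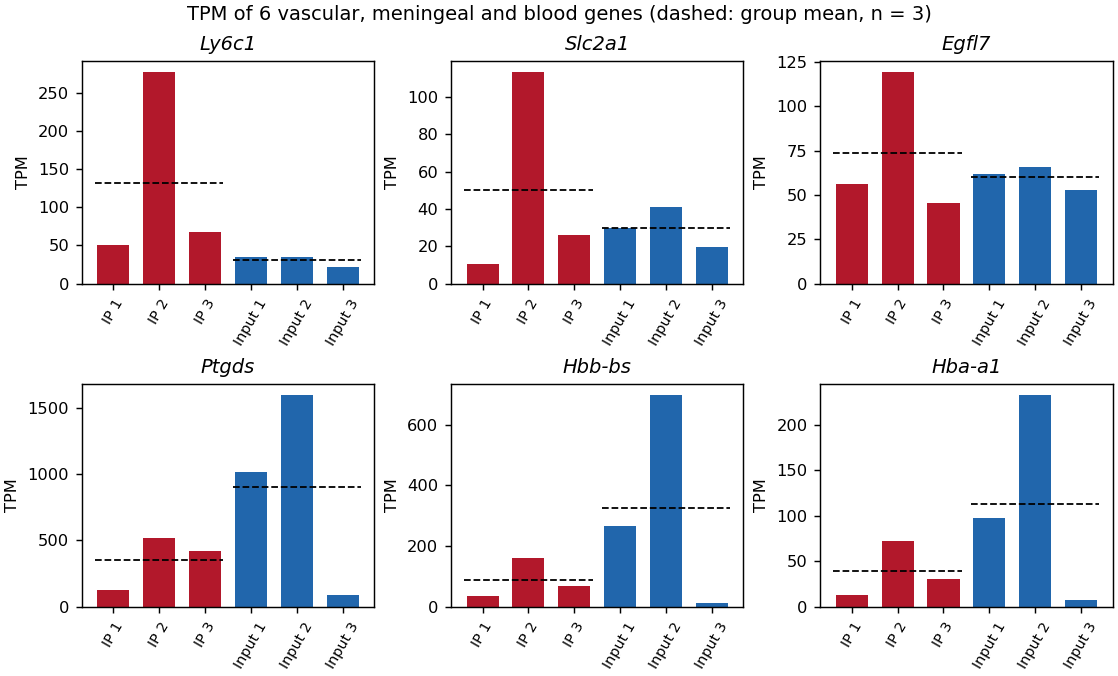
TPM (vertical axis, linear from 0) of each of the 6 genes in the 3 IP libraries (red bars) and the 3 Input libraries (blue bars), with dashed lines at the group means. In the upper row the tallest bar is IP 2 in every panel, and in the lower row it is Input 2, with Input 3 lowest.

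Ly6c1 was the 1 gene of the 6 whose groups did not overlap. It lies on chromosome 15, 75044018 to 75048830, on the minus strand, and its longest coding transcript has 4 exons. Its TPM in order of replicate were 50.3, 278 and 67.3 for IP and 34.9, 35.4 and 21.9 for Input. All IP libraries thus stood above all Input libraries, and IP 2 was 4.13 times IP 3 and 7.86 times Input 2. Its level was 1.82, 4.92 and 1.32 times the median gene in IP and 0.542, 0.527 and 0.705 times in Input. Ly6c1 was above the median gene in every IP library and below it in every Input library. The group means were 132 ± 127 TPM in the IP libraries and 30.7 ± 7.64 in the Inputs (SD, n = 3 each), which gave a centred log2 difference of 1.92 (SE 0.48; limma adjusted p = 0.649). Of all genes, 6.93% had the 3 IP libraries above the 3 Input libraries on this scale. Without IP 2 the log2 difference was 1.37. Without IP 1 and Input 3 together, libraries that stand apart from the rest of their groups, it was 2.22 and was called (limma adjusted p = 0.0343). In that fit 3.38% of genes were called higher. Both libraries were seen to stand apart in these same values, so the call depends on that choice.

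Its paralog Ly6c2, found in monocytes, has a coding sequence 81.2% identical and was not analysed here, so reads of the pair may be divided in an unknown way. Of the 27 genes of the blood leukocyte list, which includes Ly6c2, Coro1a alone had a value. Coro1a, an actin regulator of leukocytes and neurons, had between 45.4 and 94.7 TPM in the IP libraries and between 55.8 and 125 TPM in the Inputs, with a log2 difference of -0.045. Its level relative to the median gene varied little between libraries, unlike that of Ly6c1.

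Slc2a1, on chromosome 4 at 119108711 to 119137983 (plus strand, 10 exons), had 10.3, 113 and 26.1 TPM in the IP libraries and 29.9, 40.8 and 19.4 TPM in the Inputs. IP 2 was the highest of the 6 libraries and IP 1 the lowest, so IP lay on both sides of Input. As multiples of the median gene it stood at 0.373, 2.01 and 0.511 times in IP and at 0.465, 0.607 and 0.623 times in Input. The barrier's glucose transporter was thus below the median gene everywhere except in IP 2. Its group means were 49.9 ± 55.6 and 30.0 ± 10.7 TPM (SD, n = 3 each), and the log2 difference was 0.38 (SE 0.58; limma adjusted p = 0.848). Without IP 2 the difference was -0.33, so its direction rested on that library. Gm12867 and Gm12868, antisense genes in GENCODE, overlap Slc2a1, and the use of strand in counting is not stated.

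Egfl7 varied least of the 6. It lies on chromosome 2 at 26580014 to 26593120 (plus strand), a span that also holds the vascular microRNA gene Mir126a, overlaps Gm20532, a protein-coding gene on the same strand with which reads may be shared, and ends across the last bases of Agpat2 on the other strand. It had 56.0, 119 and 45.4 TPM in the IP libraries and 61.7, 66.0 and 52.8 TPM in the Inputs. IP 2 stood above all Inputs and IP 3 below all of them. Relative to the median gene the values were 2.02, 2.11 and 0.891 times in IP and 0.960, 0.982 and 1.70 times in Input, so IP 1 and Input 3, the libraries with the lowest median gene, moved up on this scale. The means were 73.6 ± 40.1 and 60.2 ± 6.70 TPM (SD, n = 3 each), and the log2 difference was 0.41 (SE 0.41; limma adjusted p = 0.786).

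**Figure D2:**
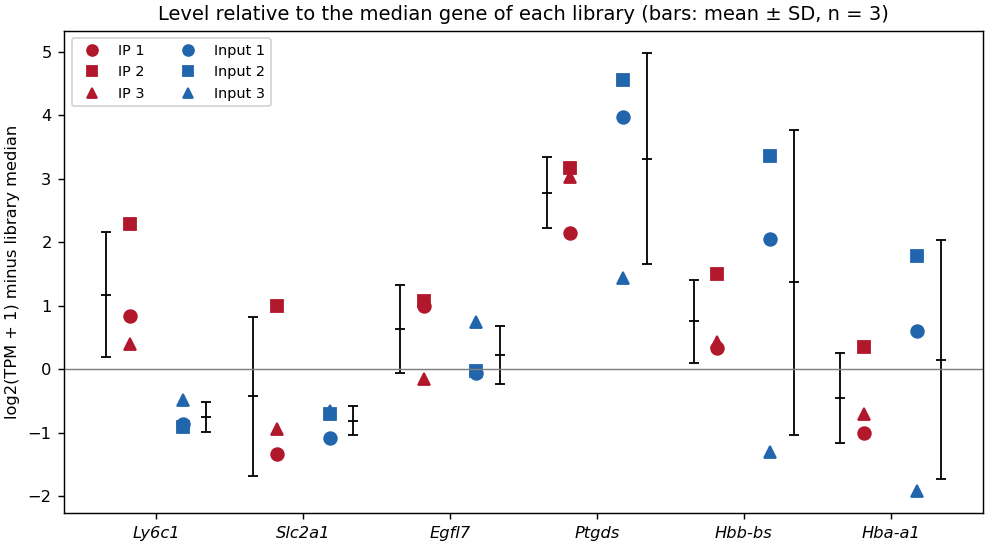
Level of each gene as log2(TPM + 1) minus the library's median (vertical axis), IP in red and Input in blue, circles standing for replicate 1, squares for 2 and triangles for 3, and the mean ± SD (n = 3) of each group in black. Ly6c1 is the gene whose red and blue points do not overlap, and the widest Input ranges are those of Ptgds, Hbb-bs and Hba-a1.

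The height of IP 2 was shared by nearly all measured endothelial, barrier transport, pericyte and smooth muscle genes. Lists of these genes held 15 measured genes in all, Ly6c1, Slc2a1 and Egfl7 included. Relative to the median gene, 14 of these 15 were highest in IP 2, where 13.8% of all genes were. The exception was Bsg, which encodes the transporter partner basigin and was highest in Input 3. A list of basement membrane genes, not among the 15, had 2 genes with a value, and 0 of them were highest in IP 2. Ranked by the level in IP 2 over the mean of IP 1 and IP 3, Slc2a1 came at rank 3 of the 5538 genes, with a log2 value of 2.13, and Ly6c1 at rank 10, with 1.66. Hba-a1 and Hbb-bs followed at ranks 30 and 44, with 1.21 and 1.12, so within IP the globin genes were also highest in IP 2. Egfl7 came at rank 405, with 0.65, and Ptgds at rank 513, with 0.59. Another 3 genes of these lists stood among the first 10: Car4 at rank 4, Slc6a6 at rank 6 and Ly6a at rank 8. The rest of the first 10 were on none of these lists: Malat1, a nuclear RNA, at rank 1, Pltp at rank 2, Gm37376 at rank 5, Gm20721 at rank 7 and Snhg11 at rank 9. IP 2 was singled out after its values were seen, and this ranking describes 1 library, with no test. The part of mice, dissection or precipitation in it was not tested.

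Car4, a carbonic anhydrase on the endothelial surface, had 7.16, 68.8 and 14.2 TPM in the IP libraries and between 8.68 and 13.4 TPM in the Inputs. Slc6a6, the taurine transporter, had 7.98, 79.9 and 26.9 TPM in the IP libraries and between 11.6 and 14.1 in the Inputs. Both stood far above every other library in IP 2 alone. Ly6a, a relative of Ly6c1 on the same cells, had 46.9, 175 and 25.9 TPM in the IP libraries and 36.2, 43.1 and 10.2 TPM in the Inputs. Ly6a was thus high in IP 2 with the other libraries overlapping. Ramp2, the receptor partner through which endothelial cells sense adrenomedullin, had 8.48, 65.3 and 20.8 TPM in the IP libraries and 26.1, 32.6 and 15.9 in the Inputs. It followed the course of Slc2a1, with IP 2 highest and IP 1 lowest.

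The lists had median differences between groups that were smaller than that of Ly6c1. All 8 of the 49 endothelial genes with a value, Egfl7 and Ly6c1 included, had a positive difference, between 0.19 and 1.92, with a median of 0.45, where the median over all genes was 0.02 and 51.8% of genes were positive. Limma called 0 of the 8 (smallest adjusted p = 0.649). Besides the members they were Ly6a (1.45), Tm4sf1 (0.60), Id3 (0.46), Ly6e (0.44), Lmo2 (0.35) and Ramp2 (0.19), the last with -0.058 when libraries were not centred. Without IP 2 the list's median was 0.20. The summed TPM of the 6 besides Egfl7 and Ly6c1 was 222, 768 and 295 in IP and 359, 402 and 175 in Input. In TPM this puts IP 2 far above the rest and IP 1 and IP 3 inside the Input range. Relative to the median gene, the median level of all 8 was 0.081, 0.754 and -0.886 log2 units in IP. In Input it was -0.946, -0.850 and -0.661, so on that scale IP 1 also stood above all Inputs. Defining endothelial genes such as Pecam1, Cdh5 and Cldn5 were not analysed here, because the table lists genes at or above 7 TPM in all 6 libraries.

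Of the 22 barrier transport genes 6 had a value, with a median difference of 0.32, which was -0.19 without IP 2. Slc6a6 (1.19), Car4 (0.96), Slc2a1 (0.38), Slc7a5 (0.25) and Slc3a2 (0.01) were positive and Bsg (-0.15) negative, and limma called 0 of them. Slc7a5 and Slc3a2, the 2 chains of the large neutral amino acid carrier, were negative without IP 2 (-0.14 and -0.23), and Slc3a2 also when libraries were not centred (-0.24). Mcam, a surface protein of smooth muscle, pericytes and endothelium, was the 1 gene of 20 on the mural list with a value. It had 21.8, 61.9 and 30.9 TPM in the IP libraries and 19.4, 22.4 and 7.27 in the Inputs, a log2 difference of 1.42 (SE 0.28; limma adjusted p = 0.649). In TPM, IP 1 lay below Input 2, and relative to the median gene all IP libraries stood above all Inputs.

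**Figure D3:**
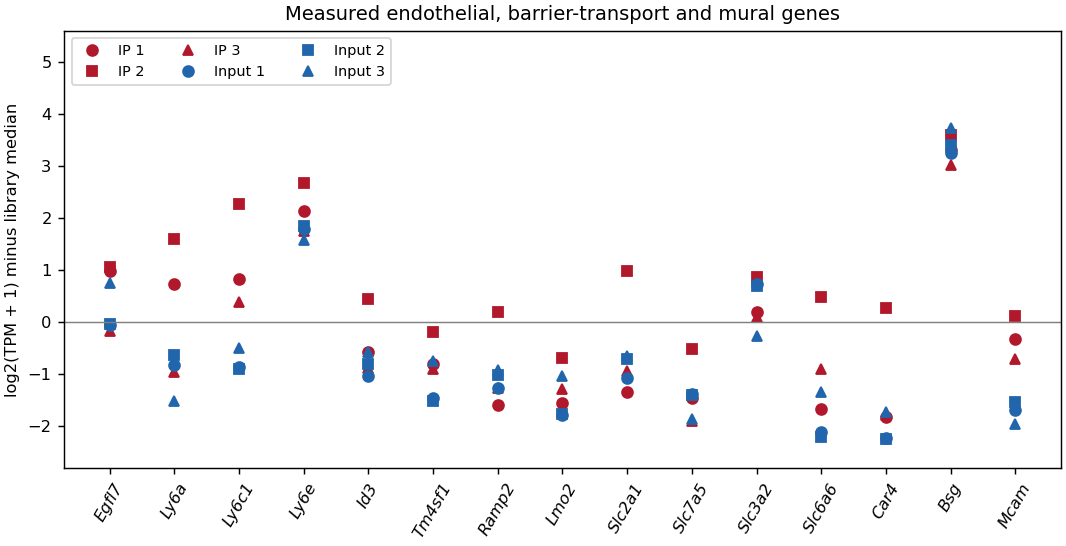
Level of the 15 measured endothelial, barrier-transport and mural genes as log2(TPM + 1) minus the library's median (vertical axis), IP in red and Input in blue, circles standing for replicate 1, squares for 2 and triangles for 3. The red square, IP 2, is the top point for 14 of the 15 genes, Bsg being the exception.

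Relatives of Ly6c1 and Slc2a1 that neurons make differed in course among themselves. Of the Ly6 superfamily, 8 of 16 genes had a value, 6 with a positive difference. Lynx1, a neuronal member that binds nicotinic receptors, had a difference of 0.85, and Ly6h, another neuronal member, of -0.68. Lynx1 stood at 2.23, 1.65 and 1.76 times the median gene in IP and at 1.33, 1.01 and 0.794 times in Input. On this scale its IP libraries were thus all above its Inputs, as those of Ly6c1 were. In IP 2, where Ly6c1 and Ly6a peaked, Ly6h had 68.1 TPM, against 189, 170 and 37.3 in Inputs 1, 2 and 3. Relative to the median gene, Ly6h stood at 1.21 times in IP 2 and at 2.94, 2.53 and 1.20 times in these Inputs. Of glucose transporters and hexokinases, 4 of 10 genes had a value, and 2 of these, Slc2a1 included, were highest in IP 2 relative to the median gene. Slc2a3, the neuronal glucose transporter, had 13.8, 30.6 and 24.3 TPM in the IP libraries and 38.1, 40.9 and 15.97 in the Inputs (log2 -0.16), with no height in IP 2 like that of Slc2a1. None of these genes was called by limma, and differences between family members were not tested.

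Ptgds had the highest TPM of the 6 genes in every library. It lies on chromosome 2 at 25466709 to 25470046 (minus strand, 7 exons). It had 125, 516 and 421 TPM in the IP libraries and 1019, 1599 and 85.3 TPM in the Inputs. The IP values lay between Input 3 and the other Inputs, so the groups overlapped through Input 3, the lowest library: Input 1 was 11.96 times and Input 2 18.7 times Input 3. In multiples of the median gene the values were 4.52, 9.13 and 8.25 times in IP and 15.8, 23.8 and 2.75 times in Input. In Input 3, its lowest library, 81.3% of genes stood at or below Ptgds, and in Input 2 99.1% did. The means were 354 ± 204 and 901 ± 764 TPM (SD, n = 3 each), and the log2 difference was -0.54 (SE 0.79; limma adjusted p = 0.843). Without Input 3 it was -1.48, and without Input 2 it was 0.078. Without IP 1 and Input 3 together it was -1.17 and was called (limma adjusted p = 0.0221), where 2.89% of genes were called lower. That fit leaves out the library through which the groups overlapped, so the call depends on that choice.

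The label of meningeal gene rests on Ptgds alone, since 28 of the 29 genes on the list of meningeal and perivascular fibroblasts, such as Dcn, Col1a1 and Igf2, were not analysed here. Oligodendrocyte genes, with which Ptgds shares a second source, had values for 11 of 19 members. Their summed TPM was 704, 4300 and 5785 in IP and 7080, 8483 and 993 in Input, so Input 3 was low and IP 1 lower. Their median difference was -0.68, with 9 of 11 negative and 0 called by limma. The differences ran from -1.18 in Apod, an apolipoprotein, to 0.23. The part of oligodendrocytes and of meninges in the values of Ptgds was not tested.

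Other measured genes of prostaglandin metabolism had narrower ranges over the 6 libraries than Ptgds, relative to the median gene. Ptges2 came nearest, with a range of 2.50 log2 units against 3.12 for Ptgds. Of 23 genes, 6 had a value, and 1 was positive and 5 negative, with a median of -0.30 and 0 called by limma. Ptges3, a cochaperone that also makes prostaglandin E2, had 30.2, 57.1 and 66.4 TPM in the IP libraries and 147, 95.7 and 84.9 in the Inputs, with all IP libraries below all Inputs (log2 -0.86, SE 0.30; limma adjusted p = 0.649). Over all genes, 9.71% had this separation relative to the median gene. Ptges2, another prostaglandin E synthase, had 50.9, 107 and 94.6 TPM in the IP libraries and 113, 115 and 9.66 in the Inputs (log2 0.89, SE 0.62; limma adjusted p = 0.732). Relative to the median gene all IP libraries stood above all Inputs in Ptges2, at 1.84, 1.89 and 1.86 times in IP and 1.75, 1.72 and 0.311 times in Input. The other 3 genes besides Ptgds were reductases. Receptors for prostaglandin D2 were not analysed here.

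Hbb-bs lies on chromosome 7 at 103826534 to 103828096 (minus strand, 3 exons) and Hba-a1 on chromosome 11 at 32283511 to 32284465 (plus strand, 3 exons). Hbb-bs had 35.2, 162 and 68.5 TPM in the IP libraries and 268, 699 and 11.97 TPM in the Inputs. Input 2 was the highest and Input 3 the lowest, 58.4 times apart, the widest range of the 6 genes. Relative to the median gene, Hbb-bs stood at 1.27, 2.86 and 1.34 times in IP and at 4.16, 10.4 and 0.385 times in Input. Its means were 88.5 ± 65.7 and 326 ± 347 TPM (SD, n = 3 each), and the log2 difference was -0.61 (SE 1.08; limma adjusted p = 0.866).

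Hba-a1 had 13.2, 72.4 and 30.8 TPM in the IP libraries and 97.5, 233 and 7.46 TPM in the Inputs. Its lowest value, in Input 3, is close to the lower bound of the table, and 1.35% of genes stood at or below it there. Against the median gene, Hba-a1 stood at 0.478, 1.28 and 0.604 times in IP and at 1.52, 3.47 and 0.240 times in Input. The means were 38.8 ± 30.4 and 113 ± 113 TPM (SD, n = 3 each), and the log2 difference was -0.61 (SE 0.88; limma adjusted p = 0.843). For both globin genes the spread among Inputs was larger than the difference between groups. Without Input 3 the differences of Hbb-bs and Hba-a1 were -1.95 and -1.64 (limma adjusted p = 0.207 and 0.249), and without Input 2 they were 0.39 and 0.21.

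The 2 globin genes varied less in proportion to each other than in level. The ratio of Hbb-bs to Hba-a1 in TPM was 2.66, 2.24 and 2.23 in IP and 2.75, 3.01 and 1.60 in Input. The ratio thus ranged between 1.60 and 3.01, while Input 2 was 58.4 times Input 3 in Hbb-bs and 31.2 times in Hba-a1. The root mean square distance between their courses over the 6 libraries, in log2 units after removing each gene's mean, was 0.31, and that between Ptgds and Hba-a1 was 0.33. Between Ly6c1 and Hbb-bs it was 1.99, the largest among the 15 pairs of these genes. The near-identical genes Hbb-bt and Hba-a2, each with 1 base different over a coding sequence of 441 and 426 bases, were not analysed here, and how reads divide within each pair is unknown.

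The ratios of the vascular genes to Hbb-bs varied more. The ratio of Ly6c1 to Hbb-bs in TPM was 1.43, 1.72 and 0.982 in IP, and 0.130, 0.0506 and 1.83 in Input. All IP ratios were above those of Inputs 1 and 2, and Input 3 had the highest ratio of the 6 libraries. The ratio of Egfl7 to Hbb-bs was 1.59, 0.738 and 0.663 in IP, and 0.230, 0.0943 and 4.41 in Input. For Slc2a1 to Hbb-bs it was 0.293, 0.701 and 0.380 in IP, and 0.112, 0.0583 and 1.62 in Input. Input 3 was again the highest and Input 2 the lowest for both. The ratio of Ly6c1 to Slc2a1 in TPM also varied, at 4.87, 2.45 and 2.58 in IP and 1.17, 0.867 and 1.13 in Input. For Ly6c1 to Egfl7 it was 0.898, 2.33 and 1.48 in IP and 0.565, 0.536 and 0.414 in Input. Both of these ratios, like Ly6c1 alone, did not overlap between groups. How many other gene pairs separate in this way was not counted, and no test was run on the ratios.

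**Figure D4:**
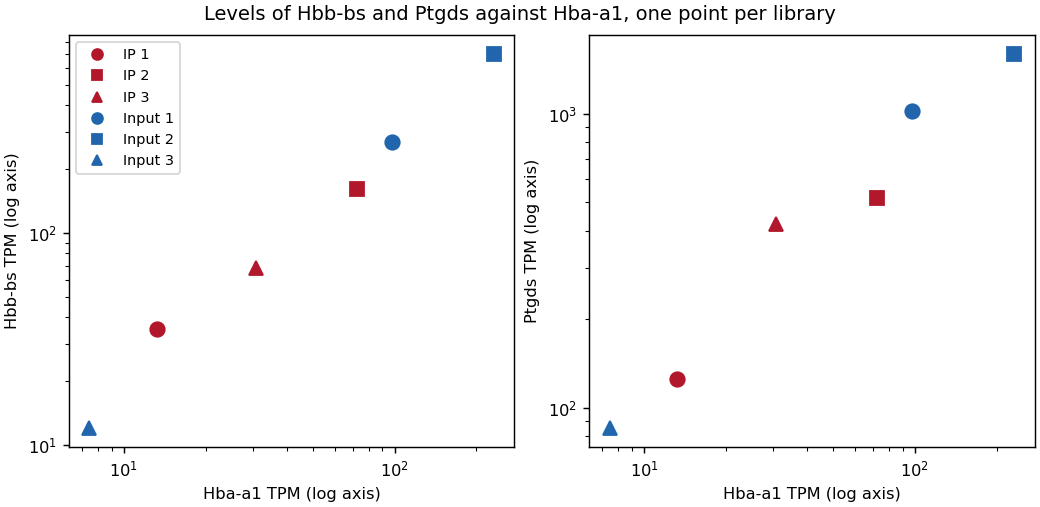
TPM of Hbb-bs (left) and Ptgds (right) against TPM of Hba-a1 in each library, all axes logarithmic, IP in red and Input in blue, circles standing for replicate 1, squares for 2 and triangles for 3. In both panels the order from highest to lowest is Input 2, Input 1, IP 2, IP 3, IP 1 and Input 3.

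Few red cell genes other than globins had a value. They were 5 of 24, with a median difference of 0.21 and 0 called by limma. Bpgm, which makes the effector that lowers the oxygen affinity of haemoglobin, had 14.2, 33.3 and 45.7 TPM in the IP libraries and 68.0, 97.3 and 21.2 in the Inputs (log2 -0.63). Prdx2, an antioxidant enzyme, and Ube2o, a ubiquitin enzyme, which neurons express too, had differences of 0.47 and 0.66. Defining red cell genes such as Alas2 and Slc4a1 were not analysed here. Cygb, cytoglobin of fibroblasts and some neurons, had 38.3, 76.0 and 81.8 TPM in the IP libraries and 171, 136 and 58.1 in the Inputs (log2 -0.58, SE 0.25; limma adjusted p = 0.649). Of 16 genes of heme and iron storage, 13 had a value, with a median of 0.10 and 0 called. The ferritin chains differed in course: Ftl1, the light chain, had 8686, 2931 and 4335 TPM in the IP libraries and 861, 1229 and 8957 in the Inputs, while Fth1, the heavy chain, had 1801, 2386 and 2512 TPM in the IP libraries and 4676, 5596 and 1408 in the Inputs. In TPM, Input 3 and IP 1 were thus the libraries highest in Ftl1 and lowest in Fth1. Relative to the median gene they were still the highest in Ftl1, while Fth1 was lowest in IP 2, at 42.2 times against 65.1 times in IP 1 and 45.3 times in Input 3. Uros and Blvrb, enzymes of heme synthesis and breakdown, had differences of -0.68 and 0.79.

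The order of libraries that Ptgds, Hbb-bs and Hba-a1 shared in TPM, from Input 2 through Input 1, IP 2, IP 3 and IP 1 to Input 3, was that of 295 genes (5.33%). Relative to the median gene the 3 genes kept this order, which 30 genes (0.542%) had in all. Input 3 was the lowest library of 25.4% of all genes relative to the median gene. Its level under the mean of Inputs 1 and 2 put Hbb-bs at rank 13 from the bottom among the 5538 genes, Hba-a1 at rank 29 and Ptgds at rank 43. Ly6c1, Slc2a1 and Egfl7 were higher in Input 3 than in that mean, by 0.40, 0.24 and 0.79 log2 units. In 7 of 9 measured astrocyte genes Input 3 was also the lowest library. The part of this library in the values of Ptgds and the globin genes is seen in the differences without it, given above.

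The genes nearest to each of the 6 in course were found by the same root mean square distance over 6 libraries. Among those nearest to Ly6c1 were Kcnn1 (0.43), a potassium channel gene, and Mcam (0.49). Kcnn1 had 14.5, 46.9 and 21.6 TPM in the IP libraries and 7.98, 11.0 and 9.35 in the Inputs. Nearest to Slc2a1 was Ramp2 (0.20). Nearest to Ptgds were Sparc (0.22), a matrix protein of vessels and astrocytes, and Cryab (0.26), a small heat shock protein of oligodendrocytes. Sparc had 78.4, 308 and 215 TPM in the IP libraries and 492, 681 and 54.4 in the Inputs. Nearest to Hbb-bs were Hba-a1 (0.31), Ptgds (0.53) and mt-Co1 (0.56), and to Hba-a1 Cdr1 (0.30), Hbb-bs (0.31) and Ptgds (0.33). Libraries are shared by all genes, and likeness in 6 libraries says nothing of a shared cell or control.

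Markers of other cells around vessels were sparse. The lists of platelets and of border macrophages had no gene with a value. Of 16 microglia genes 2 had values, with a median difference of -0.38, and of 14 choroid plexus genes 1 had a value, with a difference of -0.59. Pltp, a lipid transfer protein on the ependymal list that barrier endothelium also makes, had 20.7, 242 and 36.1 TPM in the IP libraries and 31.4, 60.1 and 14.7 in the Inputs (log2 1.13). It was another gene that stood out in IP 2, at rank 2. As a check of the precipitation, Rpl10a, the gene of the tagged protein, had between 365 and 559 TPM in the IP libraries and between 36.2 and 117 in the Inputs, all IP libraries above all Inputs. Its TPM may share reads with a pseudogene copy and does not separate the transgene from the native gene.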

How the data were processed

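Per the file headers, the authors deposited TPM for every library. RSEM, DESeq and the build mm10 are named in the submitters' processing notes, with no versions. Not given in the sources used here are the aligner, the annotation and the use of strand. The table holds 5538 genes in 6 libraries, all at or above 7 TPM in each, so genes below that in any library had no value. RNA came from pools of 4 to 5 mice, per the labels' protocols, and libraries were grouped by their titles.

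TPM were transformed to log2(TPM + 1), and the median gene of each library was set to 0. IP and Input were compared with limma 3.58.1 in R 4.3.3 (lmFit, eBayes with a variance trend, group as the single term), p-values being adjusted by Benjamini-Hochberg over the whole table and called under 0.05. Such differences understate the change of low genes. An exact permutation test of 3 against 3 libraries cannot go below 0.1 and was not run. The fit was tested on simulated data.

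The 6 genes and the 20 gene lists (376 entries, 98 distinct genes measured) were chosen with earlier results of these data known. Named genes are the 6, all measured list genes where a list has 8 or fewer, otherwise the 4 highest in level and the 2 smallest and 2 largest differences, and for each of the 6 the 3 nearest in course. The rule gave 82 genes, of which 40 appear in the text; some named by it are not reported here. Alternatives were no centring, quantile normalization, a pseudocount of 0.1, a minimum mean of 20 TPM, no variance trend, the replicate number as a block, each library left out, and IP 1 and Input 3 left out together. Gene positions are from GENCODE M21 (GRCm38), matched by gene identifier for all 6, and promoter sequences from RefSeq (GRCm38.p6), matched by symbol for all 6.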

Additional observations from a re-analysis of the deposited data

How the results depend on the processing

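Under every alternative that kept all 6 libraries, the replicate number as a block included, limma called 0 genes in either direction. Leaving out 1 library gave between 0 and 16 genes higher and between 0 and 1 lower, the upper values without Input 3. Without IP 1 and Input 3 together 187 were higher and 160 lower, Ly6c1 and Ptgds among them. Both libraries were seen to stand apart in these same values, so these calls depend on that choice. The block changed no call. Deviations of same-numbered IP and Input libraries correlated across genes at -0.10, 0.25 and -0.17. Those of differently numbered libraries correlated between -0.25 and 0.19. Deviations from a mean of 3 libraries are tied to each other, so these values cannot decide whether a shared number marks a shared pool. Over the 6 genes and 13 alternatives, 72 values kept direction and call, 2 were newly called and 4 reversed.

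With 1 library left out in turn, the log2 differences ranged from -0.33 to 0.84 for Slc2a1, from -0.36 to 0.54 for Ramp2, from -0.14 to 0.55 for Slc7a5 (all 3 reversed without IP 2), and from -0.32 to 0.19 for Slc3a2 (reversed without IP 2 or Input 3). They ranged from -1.48 to 0.078 for Ptgds, from -1.95 to 0.39 for Hbb-bs, from -1.64 to 0.21 for Hba-a1, from -1.14 to 0.13 for Sparc and from -0.13 to 0.014 for Coro1a, each reversed without Input 2. Slc3a2 was at -0.22 without IP 1 and Input 3 together. With libraries not centred, where the median gene differed by -0.23, Ramp2 and Slc3a2 were at -0.058 and -0.24. These reversals appeared only when the named libraries were left out or the zero point was changed, and what lies behind them was not tested. TPM keep no depth, so what depth limits is unknown.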

Other observations

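Ranked by the level in IP 2 over the mean of IP 1 and IP 3, the first gene of the table was the nuclear RNA Malat1, with 35.7, 1425 and 658 TPM in the IP libraries and 763, 1076 and 318 in the Inputs. It was lowest in IP 1 and highest in IP 2. Pltp, Slc2a1, Car4, Slc6a6, Ly6a and Ly6c1 were also higher in IP 2 than in any Input. Actn4, an actin crosslinker at rank 12, had 10.4, 118 and 57.6 TPM in the IP libraries and between 34.2 and 65.3 in the Inputs. These genes were picked after their values were seen, and no test was run on them.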
